A study of Mus musculus with 4 samples.

Results

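The genes of 3 HCN channels and of a partner protein were followed through the excitatory neurons of the mouse ventromedial prefrontal cortex (vmPFC). The channel genes are Hcn2, Hcn3 and Hcn4, and the partner is Pex5l. These 4 genes, of 31053 listed in the count matrices, were chosen by name, with earlier results of these data known. Their counts were summed per library and neuronal subtype, and within a subtype by the number of viral barcode transcripts in each neuron.

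HCN channels open when the membrane becomes more negative and carry an inward current of sodium and potassium, called Ih, that shapes resting potential, dendritic integration and rhythmic firing. Cyclic AMP binds the intracellular end of the channel and eases its opening, strongly in HCN2 and HCN4 and little or not at all in HCN3. Pex5l encodes TRIP8b, a brain protein that attaches to the channels, steers them to the membrane or away from it, and opposes the action of cyclic AMP.

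The study used male C57BL/6 mice that had received, at 8 weeks of age, retrograde adeno-associated viruses in 5 targets of the vmPFC. These were the lateral hypothalamus, the basolateral amygdala, the mediodorsal thalamus, the agranular insula and the dorsomedial striatum. Each virus carried EGFP and a short barcode for its target, so all libraries came from injected animals and there was no uninjected group. The 3 unsorted libraries, titled mouse 1, 2 and 3, hold all dissociated cells, and 1 sorted library holds EGFP-positive cells pooled from 3 other mice. The barcode feature in the matrices was taken to be the sum over the 5 viruses, so neither the target nor the number of targets of a neuron was known here.

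Each unsorted library held 7243 to 8040 cell barcodes and 83065993 to 87841541 UMIs, and the sorted one 2075 and 54749198 (unique molecular identifiers, 1 per captured transcript). The authors' list gave 9368 excitatory neurons in 7 subtypes, named by layer and marker, with a median of 21362 to 23213 UMIs per neuron without sorting and 31670 after it. Between 5 and 30 cell barcodes were shared by any pair of libraries. Slc17a7, the glutamate transporter gene that defines cortical excitatory neurons, stood at 704 to 1287 CPM on average in the 7 subtypes. Each subtype also had the highest level of the marker in its name. Levels are given as CPM, counts per 1000000 summed UMIs of a library and subtype, with the SD over libraries. Reads were captured at transcript ends, so levels were compared for 1 gene between cells and not between genes. The sorted library held 4 neurons of L5-Htr2c. Their sum was left out of means and orders after its values had been seen. It carried 1 UMI of Hcn2, 0 of Hcn3, 2 of Hcn4 and 5 of Pex5l.

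The 4 genes lie at separate places in the genome (GRCm38, GENCODE vM21). Hcn2 (ENSMUSG00000020331) occupies 79716634 to 79736108 of chromosome 10 on the plus strand and Hcn4 (ENSMUSG00000032338) 58823412 to 58863175 of chromosome 9 on the plus strand. Hcn3 (ENSMUSG00000028051) occupies 89146074 to 89160196 of chromosome 3 and Pex5l (ENSMUSG00000027674) 32949408 to 33143247 of the same chromosome, both on the minus strand. All 4 are protein-coding. Hcn2 and Hcn4 overlapped no other annotated gene. Hcn3 overlapped Pklr, a pyruvate kinase gene on the other strand, which reached at most 0.138 CPM in any library and subtype. Pex5l overlapped 2 genes on its own strand, which the matrices do not list, and 3 on the other. Of these, Gm37459 and 4930419G24Rik were listed and reached at most 0.582 and 0.907 CPM.

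The first question was where in the vmPFC each gene was read. Hcn2 was present at similar levels in all 7 subtypes, whereas Hcn3, Hcn4 and Pex5l each had a different leading subtype. The subtypes had been drawn by the authors from the expression of these same cells, so their levels are a description and no test between subtypes was made. Among 10122 genes with at least 10 CPM in some subtype, 33.6% had subtype means at least 2-fold apart on the log2(CPM + 1) scale. Hcn3 and Pex5l exceeded that span and Hcn2 did not. Hcn4 stayed just under the 10 CPM limit and was not among those genes.

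**Figure D1:**
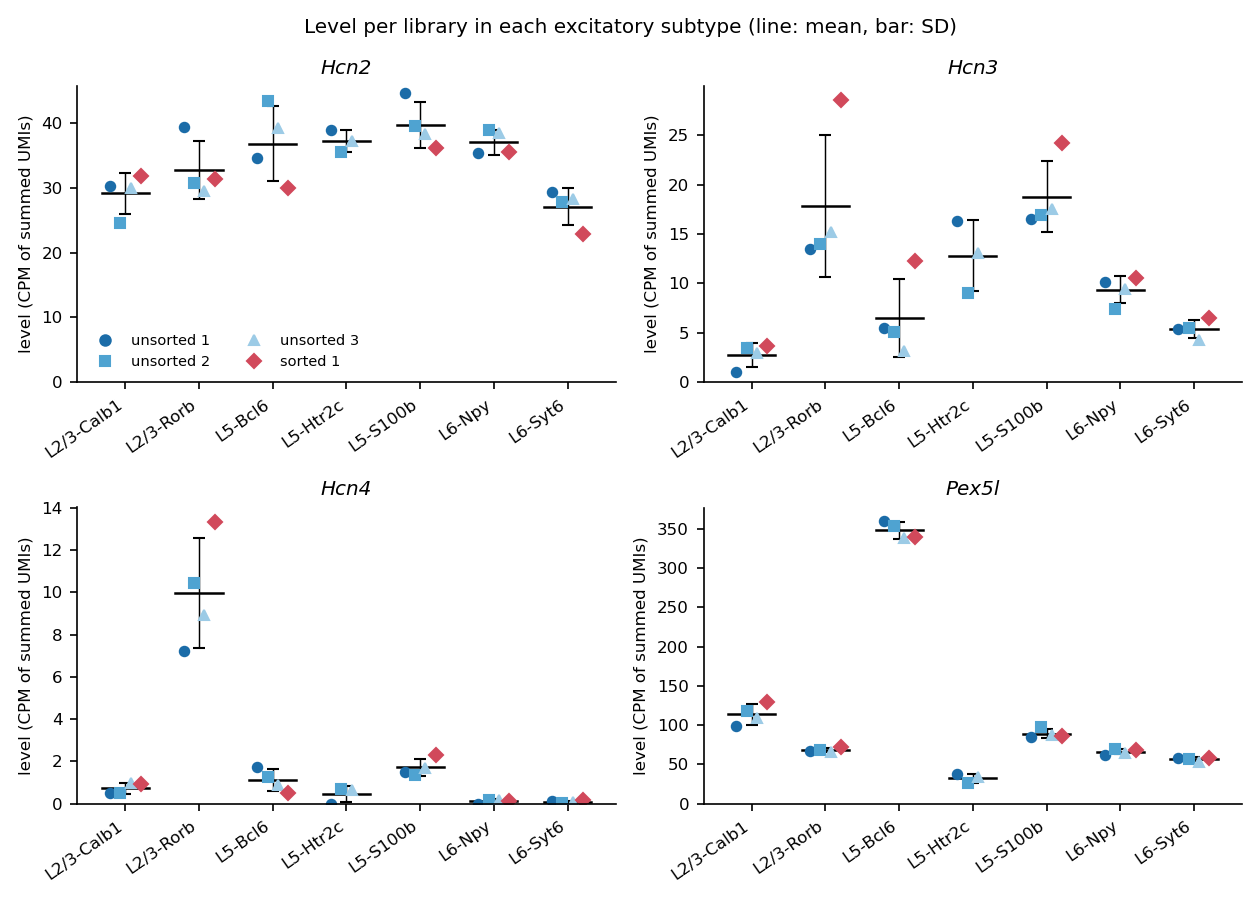
Level of each gene in CPM of the summed UMIs (vertical axes, each from 0) in the 7 excitatory subtypes (horizontal axes). Points are libraries, the short line is their mean and the bar the SD. Pex5l stands at 338 to 360 CPM in L5-Bcl6 and at or below 130 CPM elsewhere, Hcn4 at 7.20 to 13.3 CPM in L2/3-Rorb and at or below 2.30 CPM elsewhere, and the points of Hcn2 overlap between neighbouring subtypes.

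Hcn2, the channel gene with a strong response to cyclic AMP, had its highest level in L5-S100b. There it stood at 44.6, 39.6 and 38.3 CPM in the unsorted libraries 1, 2 and 3 and at 36.2 CPM in the sorted library (mean 39.7 ± 3.59 CPM, SD, n = 4). Its lowest level was in L6-Syt6, the largest subtype, with 29.3, 27.8, 28.3 and 22.9 CPM (27.1 ± 2.85 CPM). The 2 ends of this order did not overlap, and the ratio of their means was 1.47. A span of that size was reached by 69.2% of the genes. Between them came L5-Htr2c, L6-Npy, L5-Bcl6, L2/3-Rorb and L2/3-Calb1, at means from 37.3 down to 29.2 CPM. Every pair of neighbours in this order overlapped in its library values. In the closest pair, L5-Htr2c and L6-Npy, the former was higher in 1 of 3 libraries.

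Hcn3, the channel gene that cyclic AMP hardly affects, was highest in L5-S100b and L2/3-Rorb and lowest in L2/3-Calb1. In L5-S100b it stood at 16.5, 16.9 and 17.5 CPM without sorting and 24.2 CPM after it (18.8 ± 3.63 CPM, n = 4). L2/3-Rorb gave 13.5, 14.0, 15.2 and 28.6 CPM (17.8 ± 7.22 CPM). These leading subtypes overlapped, and L5-S100b was higher in 3 of 4 libraries. In L2/3-Calb1, which shares its layer name with L2/3-Rorb, Hcn3 gave 1.03, 3.44, 2.90 and 3.63 CPM, from 19 UMIs in 357 neurons. Every L2/3-Rorb library lay above every L2/3-Calb1 library. The ratio from the highest to the lowest mean was 6.83, and 11.7% of the genes spanned as much. L5-Htr2c (12.8 ± 3.62 CPM, n = 3), L6-Npy (9.37 ± 1.40 CPM), L5-Bcl6 (6.51 ± 3.98 CPM) and L6-Syt6 (5.40 ± 0.909 CPM) lay between, each overlapping its neighbour above. Only the last pair, L6-Syt6 over L2/3-Calb1, did not overlap.

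Hcn4, best known as the pacemaker channel gene of the heart, was read mostly in L2/3-Rorb. L2/3-Rorb neurons made up 7.35% of the neurons and carried 159 of the 260 UMIs of Hcn4, or 61.2%. The 1409 L5-S100b neurons carried a further 66. In L2/3-Rorb its level was 7.20, 10.4, 8.93 and 13.3 CPM (9.98 ± 2.61 CPM, n = 4), against 1.72 ± 0.411 CPM in L5-S100b, a ratio of 5.81 with no overlap. In L6-Syt6, by contrast, 5092 neurons gave 12 UMIs (0.0969 ± 0.0502 CPM), and in L6-Npy 1118 neurons gave 3. The share of L2/3-Rorb neurons with at least 1 UMI was 14.3, 21.9 and 17.5% without sorting and 32% after it. With each neuron thinned to 10000 UMIs, the expected share was 9.29 ± 2.38% in L2/3-Rorb, 1.56 ± 0.399% in L5-S100b and 0.0806 ± 0.0377% in L6-Syt6. Below L5-S100b, the neighbours in the order overlapped.

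Pex5l, the channel partner, was set apart in L5-Bcl6. It gave 360, 354, 338 and 340 CPM there (348 ± 10.8 CPM, n = 4), 3.06 times the mean of the next subtype, L2/3-Calb1 (114 ± 13.3 CPM), with no overlap. L5-Bcl6 held 4.08% of the neurons and 18.9% of their Pex5l UMIs. Below these came L5-S100b (89.0 ± 5.63 CPM), L2/3-Rorb (68.4 ± 2.90 CPM), L6-Npy (66.3 ± 3.48 CPM) and L6-Syt6 (56.7 ± 2.11 CPM), and L5-Htr2c was lowest (32.1 ± 5.81 CPM, n = 3). Only L2/3-Rorb and L6-Npy overlapped among all neighbours. The ratio from L5-Bcl6 to L5-Htr2c was 10.8, and 7.15% of the genes spanned as much. After thinning to 10000 UMIs, 95.1 ± 1.11% of L5-Bcl6 neurons were expected to keep a UMI of Pex5l, against 26.0 ± 4.38% of L5-Htr2c neurons. The channel genes did not share this peak, since L5-Bcl6 led the order of none of Hcn2, Hcn3 and Hcn4.

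The patterns of the 4 genes were then set beside all others. For each gene, the library mean was taken off log2(CPM + 1), and Pearson's r was computed over 27 library-by-subtype sums that share libraries and depth. The genes most like Pex5l were Tmem132b (r = 0.94), Fam131a (0.94) and Dexi (0.93), all led by L5-Bcl6. For Hcn4 they were Tmem94 (0.94), Col26a1 (0.93) and Scn7a (0.92), all led by L2/3-Rorb. For Hcn3 they were Celf4 (0.90), Cnih3 (0.89) and Slc6a17 (0.88), all lowest in L2/3-Calb1, and for Hcn2 Pafah1b1 (0.86), B4galt6 (0.85) and Cnot1 (0.84), all lowest in L6-Syt6. Within the set of 4, r was 0.47 between Hcn2 and Hcn3 and 0.47 between Hcn3 and Hcn4. It was -0.35 between Hcn3 and Pex5l. Pex5l gave 0.15 with Hcn2 and 0.07 with Hcn4. With the sum of 4 sorted L5-Htr2c neurons added, the 12 names changed except for Cnot1 beside Hcn2 and Fam131a beside Pex5l, r between Hcn2 and Hcn3 became 0.69, and r between Hcn3 and Hcn4 became 0.04. Between Hcn2 and Hcn4 r went from 0.11 to -0.29, and between Hcn3 and Pex5l it became -0.20.

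Genes that act on the channels were taken as a pair of lists. The first held 17 binding partners and regulators, among them Nedd4l, a ubiquitin ligase, and Flna, the cytoskeletal protein filamin A. Of 12 partners at or above 10 CPM, 4 spanned at least 2-fold between subtypes, beside 33.6% of all 10122 genes. Among these 4, Nedd4l and Apba2 stood at the limit, with a span of 1.00 on the log2 scale. The median span was 0.76 over the 12 partners against 0.73 over all 10122 genes. The second list held 21 enzymes that make or break cyclic AMP, the ligand of the channels. Of 18 at or above 10 CPM, 14 spanned at least 2-fold, beside the same 33.6% of all genes, with a median of 1.92. The widest was Adcy2, an adenylyl cyclase gene, from 305 CPM in L5-Htr2c to 16.8 CPM in L6-Npy. Pde1a, which encodes a calmodulin-dependent phosphodiesterase, went from 587 CPM in L6-Syt6 to 57.2 CPM in L5-Htr2c. Adcy1 also led in L6-Syt6, at 499 CPM.

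The second question was whether the genes differed, within a subtype, between neurons with several viral barcode transcripts and neurons in which none was read. Neurons with 5 or more barcode UMIs (barcode-high) were compared with neurons with 0 (barcode-zero) of the same library. The paper used other cuts, set per barcode from non-neuronal and EGFP-negative cells in separately amplified barcode libraries. How much free barcode RNA adds to the counts used here was not tested. A barcode-zero neuron can project to other areas or can have been missed, and in the sorted library it had passed the EGFP sort. Sums of raw counts were fitted with edgeR's quasi-likelihood test with the library as a block. Genes were called where the p-value, adjusted by Benjamini and Hochberg over all genes tested, was under 0.05 and the log2 fold change was 0.5 or more in size. Replicates here are libraries. With the block, p-values set the within-library difference between the groups against its spread over these libraries.

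The barcode groups differed most clearly for Hcn2, the only member called. In L5-S100b its level in barcode-high neurons was 49.2, 40.4 and 40.2 CPM without sorting and 36.8 CPM after it. In barcode-zero neurons it was 32.9, 29.2, 26.1 and 33.3 CPM. All 4 barcode-high values lay above all 4 barcode-zero values (41.7 ± 5.29 against 30.4 ± 3.41 CPM). The log2 fold change was 0.51 with an SE of 0.14 and an edgeR adjusted p of 0.0190, so Hcn2 rose and was called. Of the genes tested in L5-S100b, 2.70% were called, and of the 3 members tested, Hcn2 was the 1. The call lay at the edge of the fold limit: in neurons of 10000 to 40000 UMIs the change was 0.47 (edgeR adjusted p = 0.0461), and with DESeq2 it was 0.50 with an adjusted p of 0.288. The edgeR adjusted p was 0.161, 0.0860 and 0.0864 without the unsorted library 1, 2 or 3 in turn, and 0.0114 without the sorted one. Barcode-high neurons were also deeper, with a median of 25554 to 34389 UMIs against 19307 to 28185 UMIs. Hcn3 in L5-S100b was higher in barcode-high neurons of all 4 libraries, with overlapping ranges. Its log2 fold change was 0.25 with an SE of 0.19 and an edgeR adjusted p of 0.556, so it was not called.

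**Figure D2:**
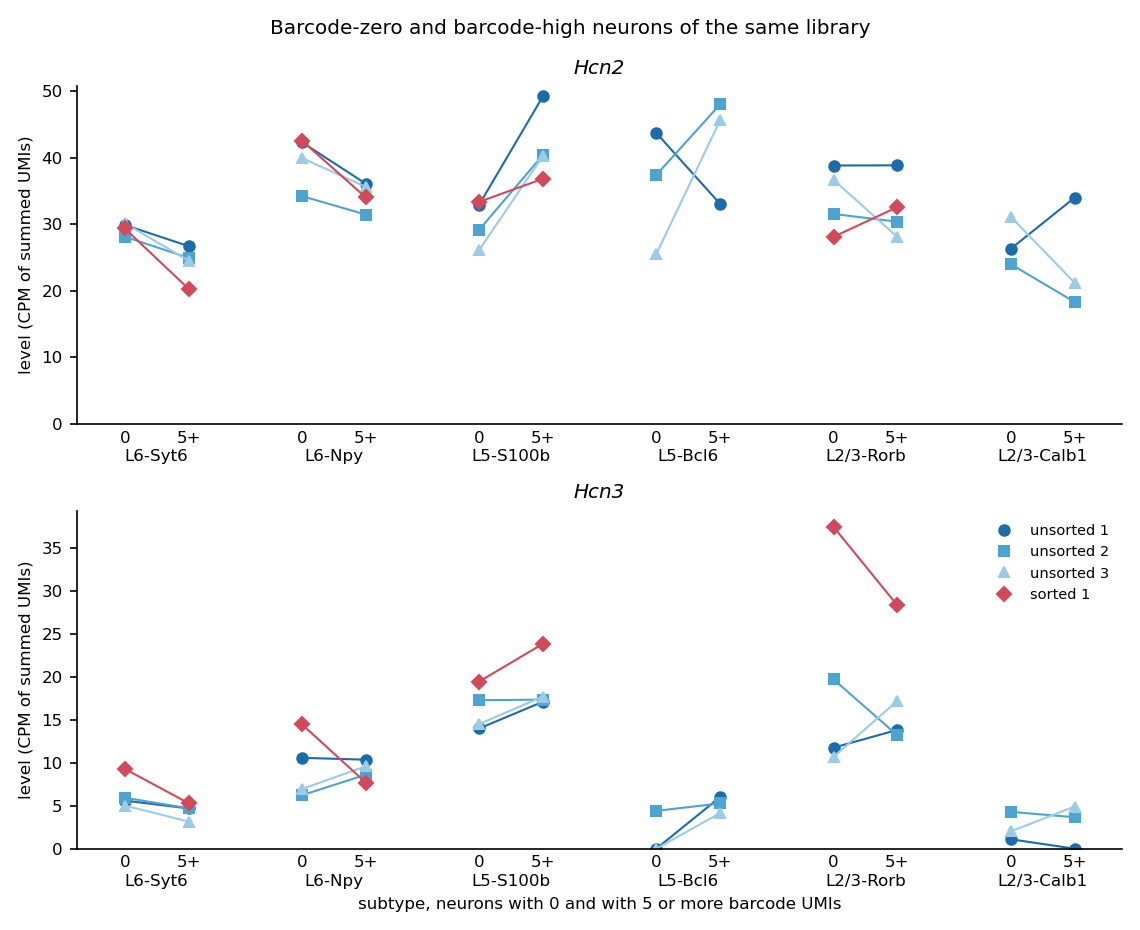
Level of Hcn2 (upper) and Hcn3 (lower) in CPM of the summed UMIs in neurons with 0 and with 5 or more barcode UMIs (horizontal axis), for the 6 subtypes tested. Each line joins the 2 groups of 1 library. Hcn2 lines go up in all 4 libraries of L5-S100b, from 26.1 to 33.3 CPM up to 36.8 to 49.2 CPM, and down in all 4 libraries of L6-Syt6 and of L6-Npy.

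In L6-Syt6 the order of the groups was the other way round. Barcode-high neurons gave 26.7, 24.9, 24.5 and 20.3 CPM of Hcn2, and barcode-zero neurons 29.9, 28.1, 30.1 and 29.3 CPM. All 4 barcode-high values lay below all 4 barcode-zero values, from 1111 and 1537 UMIs. The log2 fold change was -0.21 with an SE of 0.064 and an edgeR adjusted p of 0.0736, so it was not called. With 1 or more barcode UMIs in place of 5 or more it was -0.10 with an adjusted p of 0.428. Hcn3 was also lower in barcode-high neurons of all 4 libraries, at 4.68, 4.70, 3.15 and 5.29 CPM against 5.59, 5.93, 5.02 and 9.29 CPM. Its group ranges overlapped, its log2 fold change was -0.43 with an SE of 0.14, and its edgeR adjusted p was 0.0851. Of the genes tested in L6-Syt6, 1.67% were called, and none of the 3 members tested, and all 3 had an unadjusted edgeR p under 0.05, as did 25.4% of the genes tested there. The 5 mural cell markers summed to 6.25 to 11.3 CPM in barcode-high and 24.0 to 35.3 CPM in barcode-zero L6-Syt6 neurons. None of the 5 was at 0, and their part in the Hcn2 and Hcn3 values was not tested.

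The difference between the 2 subtypes was tested itself. For Hcn2, the barcode effect in L5-S100b exceeded that in L6-Syt6 by 0.72 on the log2 scale, with an SE of 0.15 and an edgeR adjusted p of 0.00448. In this comparison 3.01% of the genes were called, and of the 4 members tested, Hcn2 was the 1. DESeq2 gave 0.73 with an adjusted p of 0.00440. Leaving out 1 library at a time kept the difference between 0.66 and 0.79, but the adjusted p rose to 0.0575 without the unsorted library 1 and to 0.0555 without the unsorted library 3. Hcn3 differed by 0.68 in the same direction, with an SE of 0.22 and an edgeR adjusted p of 0.0814, and was not called. Pex5l differed by 0.01 with an SE of 0.12.

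In the other 4 subtypes none of the members tested was called by edgeR, and 0 had an unadjusted p under 0.05. In L6-Npy, Hcn2 was lower in barcode-high neurons of all 4 libraries (34.3 ± 2.09 against 39.7 ± 3.88 CPM), with overlapping ranges, a log2 fold change of -0.20 with an SE of 0.13 and an edgeR adjusted p of 0.623. The background there was 0.801% of genes called. In L2/3-Rorb, Hcn4 gave 9.95 ± 2.67 CPM in barcode-high and 6.82 ± 2.97 CPM in barcode-zero neurons, the latter from 18 UMIs. Its log2 fold change was 0.52 with an SE of 0.37 and an edgeR adjusted p of 0.857, beside 0.139% of genes called. It ran from 0.17 without the unsorted library 2 to 1.00 without the unsorted library 1. In L5-Bcl6 and L2/3-Calb1 only the 3 unsorted libraries had enough neurons, and 0.0686% and 0.180% of genes were called. Hcn2 in L5-Bcl6 changed by 0.24 with an SE of 0.25, and from 0.00049 to 0.57 without single libraries. Its change was -0.16 with an SE of 0.28 in L2/3-Calb1 and -0.072 with an SE of 0.17 in L2/3-Rorb. Pex5l in L5-Bcl6 gave 384, 353 and 347 CPM in barcode-high and 311, 356 and 331 CPM in barcode-zero neurons. Its log2 fold change was 0.11 with an SE of 0.089. It ran from 0.026 without the unsorted library 1 to 0.18 without the unsorted library 2. Hcn3 in L5-Bcl6 had 26 UMIs in barcode-high and 2 in barcode-zero neurons and did not pass the filter on low counts. L5-Htr2c had 2 to 4 barcode-high neurons per library and was not tested.

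The fold changes of Pex5l ran from 0.03 in L2/3-Calb1 to 0.20 in L2/3-Rorb, all above 0 and none called, and the lowest edgeR adjusted p was 0.15, in L6-Syt6. In L5-S100b and L2/3-Calb1 the sign turned when 1 library, the unsorted library 3, was left out. The differences of the barcode effect from L6-Syt6 were called for none of the members in L6-Npy (1.53% of genes called) or in L2/3-Rorb (0.736% called). For Hcn2 they were 0.01 with an SE of 0.14 and 0.14 with an SE of 0.18.

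**Figure D3:**
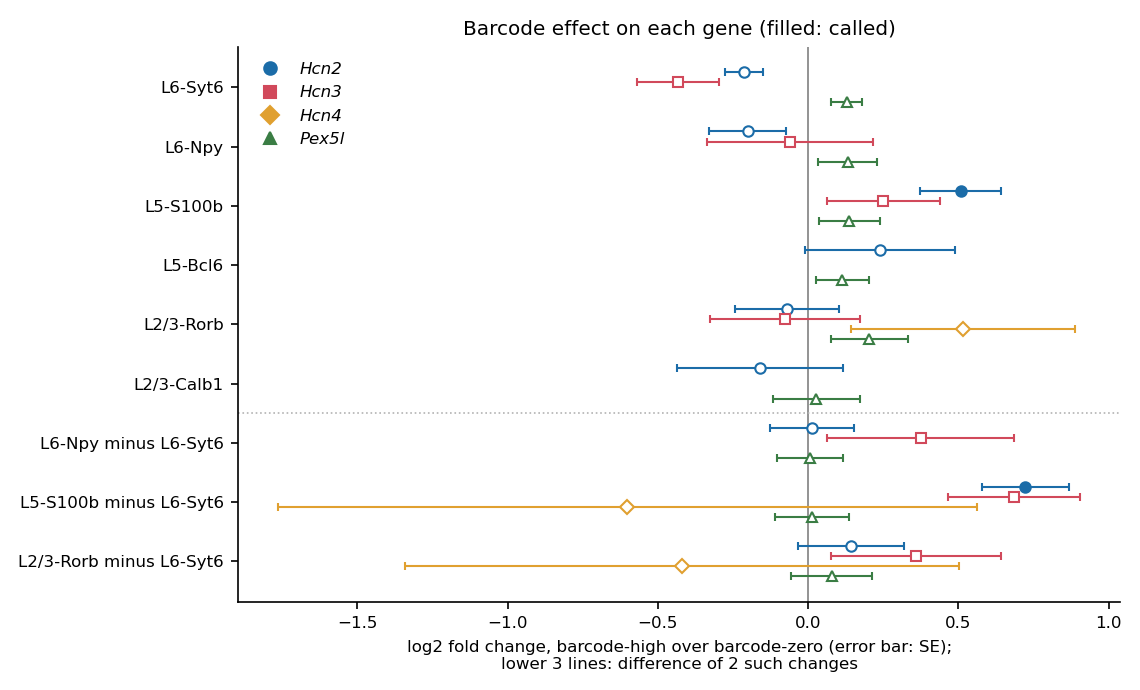
Log2 fold change of barcode-high over barcode-zero neurons (horizontal axis) with its SE, for each gene that passed the filter on low counts, in the 6 subtypes tested (upper) and as the difference from L6-Syt6 in 3 of them (lower). Filled points are called: Hcn2 in L5-S100b (0.51) and its difference from L6-Syt6 (0.72).

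None of the binding partners was called in any of the 6 subtypes, with 11 to 13 of the 17 tested. At an unadjusted p under 0.05 there were 5 in L6-Syt6, 2 in L6-Npy, 0 in L5-Bcl6 and 1 in each of the other 3. The share of all genes under that limit was 25.4% in L6-Syt6, 17.2% in L5-S100b and 10.6% in L6-Npy, and 5.67 to 6.78% in the other 3 subtypes. In L5-S100b the median log2 fold change was 0.02 over the partners and 0.09 over the cyclic AMP enzymes, beside -0.0036 over all genes tested. Of the enzymes, 14 to 18 of the 21 were tested. At an unadjusted edgeR p under 0.05 there were 5 in L6-Syt6, 7 in L5-S100b and 1 in L6-Npy. In L5-Bcl6 there were 4, and 3 in each of L2/3-Rorb and L2/3-Calb1. Only 1 was called, of 18 tested in L5-S100b, where 2.70% of all genes were called. It was Pde1c, a calmodulin-dependent phosphodiesterase gene, with a log2 fold change of 1.31, an SE of 0.27 and an edgeR adjusted p of 0.00205. Pde1c also had its highest level in L5-S100b, at 13.5 CPM. In the differences from L6-Syt6, Adcy2 was called in L5-S100b at 0.58 with an SE of 0.12 (edgeR adjusted p = 0.00470). Pde4d, a phosphodiesterase specific to cyclic AMP, was called in L6-Npy at 0.51 (edgeR adjusted p = 0.0496), 1 of 16 enzymes, beside 1.53% of all genes. In L2/3-Rorb it was called at 1.01 with an SE of 0.17 (edgeR adjusted p = 0.00392), 1 of 18 enzymes, beside 0.736%. Both differences share the change of Pde4d within L6-Syt6, -0.32 with an SE of 0.056 (edgeR adjusted p = 0.0129). Within L6-Npy its change was 0.19 (edgeR adjusted p = 0.644) and within L2/3-Rorb 0.68 (edgeR adjusted p = 0.0551), neither called.

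The third comparison set the sorted library against the range of the 3 unsorted ones, within subtypes with at least 10 sorted neurons. Sorting, the animals, the library and its greater depth cannot be told apart here, and with 1 sorted library there was no test. Hcn3 lay above the unsorted range in 6 of 6 subtypes, with ratios of the sorted value to the unsorted mean from 1.17 in L6-Npy to 2.68 in L5-Bcl6. Of the 10122 genes with at least 10 CPM in some subtype, 25.6% did so. In L2/3-Rorb the sorted value of 28.6 CPM exceeded the highest unsorted one by more than 1.5-fold, which Hcn3 in L5-S100b (24.2 against at most 17.5 CPM) did not. In the other 4 subtypes Hcn3 was under 10 CPM on average and was not set against that limit. Hcn2 lay below the range in L6-Syt6 (22.9 against 27.8 to 29.3 CPM), L5-Bcl6 (29.9 against 34.6 to 43.4 CPM) and L5-S100b (36.2 against 38.3 to 44.6 CPM). It was within the range in 2 subtypes and above it in L2/3-Calb1, and 31.4% of the genes were below the range in at least 3 subtypes. Pex5l was above the range in 3 and within it in 3 subtypes, with ratios from 0.96 to 1.20, and 53.7% of the genes were above it in at least 3. Neither Hcn2 nor Pex5l was outside the range by 1.5-fold in any of the 6 subtypes. The share of genes outside it by that much was 20.1% in L2/3-Calb1, 12.4% in L2/3-Rorb, 3.11% in L6-Syt6, 6.45% in L5-S100b, 8.25% in L5-Bcl6 and 12.7% in L6-Npy. Hcn4, under 10 CPM on average in each subtype, was above the range in 3 subtypes, among them L2/3-Rorb (13.3 against 7.20 to 10.4 CPM), within it in 2 and below it in 1. In neurons of 10000 to 40000 UMIs only, Hcn3 was above the range in 6 subtypes, and Hcn2 above in 0 and below in 4. Pex5l was above it in 2 and below in 2, and Hcn4 above in 3 and below in 2.

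The last comparison placed the neurons beside the other cells of the unsorted libraries, which were clustered and named from marker genes. It is a description, since the same counts made the clusters. Pex5l was far higher in oligodendrocytes, the myelin-forming cells, than in excitatory neurons. It gave 585, 566 and 584 CPM in the 3 libraries (578 ± 11.0 CPM, n = 3) against 76.9 ± 3.26 CPM, a 7.52-fold ratio that also exceeded the 348 CPM of L5-Bcl6. Of 1714 oligodendrocytes, 86.9% had a UMI of Pex5l (95% Wilson interval 85.3 to 88.4%) at a median depth of 4729 UMIs. In microglia, at a median of 4159 UMIs, the share was 0.968% of 2893 cells (0.670 to 1.39%). Thinned to 2000 UMIs, the shares were 64.1% in oligodendrocytes, 13.2% in excitatory neurons and 0.538% in microglia. In oligodendrocyte precursors Pex5l was at 22.3 ± 3.02 CPM, within the same lineage, and in inhibitory neurons at 24.5 to 32.9 CPM on average.

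**Figure D4:**
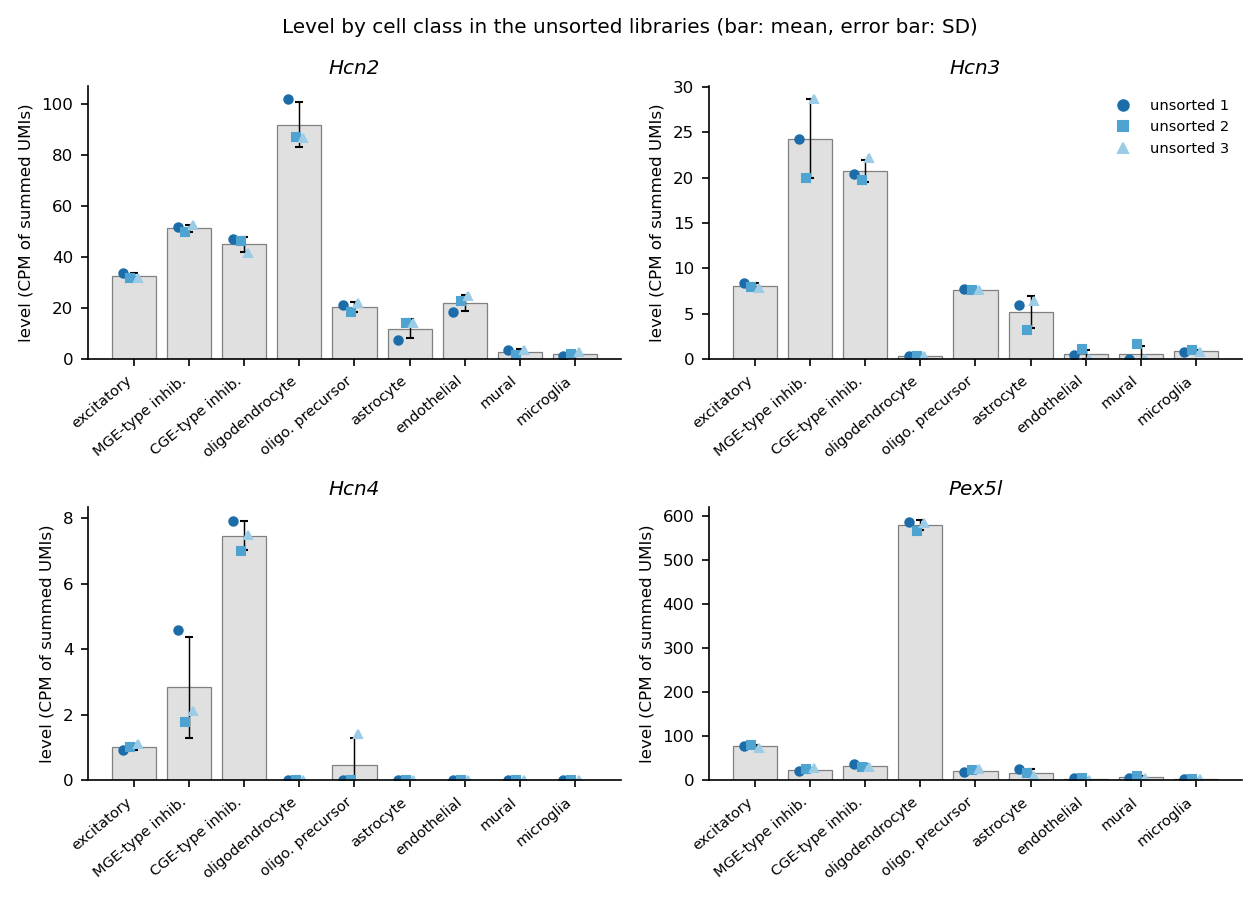
Level of each gene in CPM of the summed UMIs (vertical axes, from 0) in 9 cell classes of the 3 unsorted libraries (horizontal axes). Bars are means, error bars the SD and points the libraries. Pex5l and Hcn2 are highest in oligodendrocytes (578 and 91.8 CPM), where Hcn3 is at 0.334 CPM and Hcn4 has no UMI.

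Hcn2 was also highest in oligodendrocytes, at 102, 86.9 and 86.5 CPM (91.8 ± 8.81 CPM) against 32.3 ± 1.17 CPM in excitatory neurons. After thinning, 13.4% of oligodendrocytes and 6.30% of excitatory neurons were expected to have a UMI, and 0.394% of microglia. Inhibitory neurons named from MGE-type markers formed 1 cluster, with Lhx6, Sst and Nxph1 but not Pvalb among the markers that stood out, and reached 51.2 ± 1.40 CPM and those named from CGE-type markers (Adarb2, Vip, Lamp5) 45.0 ± 2.90 CPM, above excitatory neurons in 3 of 3 libraries. Endothelial cells were at 21.9 ± 3.25 CPM and microglia at 2.01 ± 0.807 CPM.

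Hcn3 and Hcn4 were highest in inhibitory neurons when the excitatory neurons were taken as 1 class. Hcn3 stood at 24.3 ± 4.33 CPM in MGE-type and 20.8 ± 1.21 CPM in CGE-type neurons, against 8.06 ± 0.288 CPM in excitatory neurons. In oligodendrocytes 3 UMIs were read in 1714 cells (0.334 CPM), so Hcn3 was 0.0414 times the excitatory level in the cells with the most Hcn2. Hcn4 gave 7.91, 7.01 and 7.48 CPM in CGE-type neurons (7.46 ± 0.447 CPM), against 2.84 ± 1.53 CPM in MGE-type and 1.02 ± 0.0823 CPM in excitatory neurons. Among 1714 oligodendrocytes, 510 astrocytes, 1620 endothelial cells, 617 mural cells and 2893 microglia no UMI of Hcn4 was read. A count of 0 allows a share of cells with a UMI of up to 0.175% in oligodendrocytes and 0.104% in microglia, for counting error only.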

How the data were processed

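The authors made the deposited raw UMI counts with Cell Ranger from Chromium 3' libraries, against an mm10 reference with the viral barcodes added, with no normalization. They also deposited the subtype name, library and total UMI count of each excitatory neuron, after filtering and clustering in Seurat and Scanpy. Groups came from the sample titles, which give 1 mouse per unsorted library. With the library as a block, p-values set the difference between barcode groups against its spread over these samples. All columns used were mapped to a library (0 were not).

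Counts were summed per library, subtype and barcode group, leaving the viral feature out. The tests were made in R 4.3.3 with edgeR 4.0.16, by glmQLFTest after filterByExpr and TMM scaling. A library entered with at least 10 neurons in both groups, and a contrast needed at least 3 libraries. The SE is the fold change divided by the root of F. Both groups of a contrast came from 1 library, which was the block. DESeq2 1.42.0, RLE factors, no filter, 1 or more barcode UMIs, a UMI window, no library term and leaving out each library were alternatives. Fits were tested on simulated data.

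Cells were kept at 500 to 8000 genes, a total of 1000 to 60000 UMIs and a mitochondrial share below 20%, and clustered with the Leiden algorithm (leidenalg 0.10.2, 2000 variable genes, 30 principal components, 15 neighbours, 34 clusters). Of these, 11 clusters with 1022 cells stayed unnamed, including those with mixed markers. No doublet caller was run. Wilson intervals and the limits for a count of 0 (3 counts) cover counting error only.

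The 4 genes and both lists were chosen with earlier results of these data known. The rule was to name all 4 in every comparison, called list genes by largest change, and the 3 most alike genes. Some values of members that were not called are left out of the text. The plan used all 28 library-by-subtype sums for levels, and 27 were used. Other genes of these families and the summed oligodendrocyte markers are not reported here.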

Additional observations from a re-analysis of the deposited data

Results flagged for a closer look

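The barcode effect on Hcn2 differed between L5-S100b and L6-Syt6 by the test of the difference itself, at 0.72 on the log2 scale (SE 0.15, edgeR adjusted p = 0.00448). Barcode-high neurons were higher in 4 of 4 libraries of L5-S100b and lower in 4 of 4 libraries of L6-Syt6. The adjusted p ran from 0.000210 to 0.0575 when each library was left out in turn.

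Within-library differences between barcode-high and barcode-zero neurons, as log2 of the ratio of CPM + 1, were screened for a library far from the other 3 in 16 sets of 4 libraries, and 2 stood apart. Chance flags about 1 in 20 such sets. For Hcn3 in L5-S100b the unsorted library 2 gave 0.0052, against 0.27, 0.27 and 0.28 in the others. For Hcn4 in L6-Npy the unsorted library 1 gave 0, against 0.39, 0.40 and 0.46. Those Hcn4 values rest on 3 UMIs in barcode-high and 0 in barcode-zero neurons, at or under the limit that 3 counts set.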

How the results depend on the processing

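Of the fold changes of the members, 108 of 113 kept direction and side of the threshold in the alternatives that keep all libraries. The call of Hcn2 in L5-S100b was lost with DESeq2 (0.50), with 1 or more barcode UMIs (0.47), in neurons of 10000 to 40000 UMIs (0.47) and with no replicate block (0.49, adjusted p = 0.254), while its direction held. Without single libraries it ran from 0.46 to 0.59, with adjusted p from 0.0114 to 0.161, and its difference from L6-Syt6 from 0.66 to 0.79. With 1 or more barcode UMIs, Hcn2 in L2/3-Calb1 reversed to 0.11. Removing 1 library reversed values near 0 that were not called: Pex5l in L5-S100b (-0.0029 to 0.24) and L2/3-Calb1 (-0.072 to 0.11), Hcn3 in L6-Npy (-0.22 to 0.28) and L2/3-Rorb (-0.27 to 0.093), and Hcn2 in L2/3-Rorb (-0.12 to 0.028) and L2/3-Calb1 (-0.47 to 0.040). Among differences from L6-Syt6 it reversed Hcn2 in L6-Npy (-0.0062 to 0.063), Hcn4 in L5-S100b (-1.69 to 1.27) and L2/3-Rorb (-1.27 to 1.08), and Pex5l in L6-Npy (-0.00022 to 0.027), L5-S100b (-0.15 to 0.16) and L2/3-Rorb (-0.015 to 0.22).

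The number of genes called moved more. It was 218 in L6-Syt6, 27 with 1 or more barcode UMIs and 75 with no replicate block. It was 310 in L5-S100b, 142 with DESeq2, 202 with 1 or more barcode UMIs and 56 with no block. In L6-Npy 83 became 11, 31 and 0, and in L2/3-Rorb 14 became 0, 6 and 0 in those 3 settings, and 28 with no filter. In L5-Bcl6 6 became 22 with no filter, 1 with no block and 0 with DESeq2, RLE factors, 1 or more barcode UMIs or the UMI window, and in L2/3-Calb1 15 became 2 with DESeq2, 32 with no filter and 4 with 1 or more barcode UMIs. Where DESeq2 called 0, 132 and 46 genes had an unadjusted p under 0.05 in L2/3-Rorb and L5-Bcl6, and edgeR without the block had 406 and 285 in L6-Npy and L2/3-Rorb. Where edgeR called 0 in L5-Bcl6, it had 574 with RLE factors, 573 with 1 or more barcode UMIs and 502 in the UMI window. Leaving out each library gave 28 to 309 in L6-Syt6, 178 to 289 in L5-S100b, 45 to 75 in L6-Npy, 2 to 33 in L2/3-Rorb, 4 to 31 in L5-Bcl6 and 12 to 26 in L2/3-Calb1. For the differences from L6-Syt6 it gave 43 to 243 around 177 in L6-Npy, 186 to 515 around 386 in L5-S100b and 27 to 125 around 86 in L2/3-Rorb. The low end of 28 in L6-Syt6 came without the unsorted library 2. The causes were not tested.

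Levels moved by less than 1 SD in 23 of 25 alternatives. The exceptions were Hcn4 in L6-Syt6 as a mean over cells (0.189 CPM) and Pex5l in L5-Htr2c with the 4 sorted neurons (39.3 CPM, chosen after seeing the data). In neurons of 10000 to 40000 UMIs the sorted ratio of Hcn3 was 1.52 in L5-S100b and 1.5 in L6-Syt6, and that of Hcn2 in L6-Syt6 was 0.85. Thinning to 2000 UMIs lowered the share of cells with a UMI to 64.1% for Pex5l and 13.4% for Hcn2 in oligodendrocytes, 4.94% for Hcn3 in MGE-type and 1.43% for Hcn4 in CGE-type neurons. Hcn4 passed the count filter only in L2/3-Rorb among the 6 contrasts, and Hcn3 in 4 of them, so their changes elsewhere were not tested.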

Other observations

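The sorted L5-Htr2c sum of 4 neurons gave 12.2 CPM of Hcn2, 24.4 CPM of Hcn4 and 61.0 CPM of Pex5l, and 0 UMIs of Hcn3. With it included, as first planned, the 3 genes most like Hcn4 were Slc30a4, Rbpj and Atxn2. The share of genes whose subtype means lay at least 2-fold apart was then 35.8%.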
